A study of Mus musculus with 18 samples.

Results

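The genes described here encode proteins of the cytosolic ribosome. They were chosen by name, as every probe set whose single gene symbol had the form of a large-subunit (Rpl), small-subunit (Rps) or stalk (Rplp) protein, or was Rpsa. This gave 49 probe sets for 35 genes, out of 8251 genes with a probe set of 1 symbol among 12488 probe sets. Each gene was followed by its brightest probe set.

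The cells were C3H10T1/2, an established line of mouse embryo fibroblasts that can be turned towards fat cells by hormones. All were collected 72 h after serum was last added and 24 h after they became confluent, and each array read mRNA pooled from 6 cultures. The 8 groups were all combinations of an adipogenic mix called IDMB (10 µg/mL insulin, 1 µM dexamethasone, 0.5 µM IBMX as labelled, and 1 µM BRL49653, for 24 h), 10 nM EGF for 24 h and 10 nM TCDD for 72 h, with UT the group given none of them. UT and IDMB had 3 arrays each, and the groups TCDD, EGF, EGF+TCDD, IDMB+TCDD, IDMB+EGF and IDMB+EGF+TCDD had 2 each, which made 18 arrays. The labels call the arrays of a group replicates without saying whether the pools came from separate experiments, so p-values measure the spread between these arrays, which may be technical.

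Ribosomal proteins assemble with ribosomal RNA into the small subunit, which decodes mRNA, and the large subunit, which joins amino acids. Their mRNAs are among the most abundant of a growing cell, and most begin with a cytosine followed by a run of pyrimidines, the 5′ terminal oligopyrimidine (TOP) tract, through which mTORC1 signalling controls how well they are translated. Insulin and EGF are classical activators of that pathway, TCDD is an agonist of the aryl hydrocarbon receptor, and arrays measure mRNA and not translation.

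Promoter sequences from RefSeq (build GRCm38.p6, 250 bases before to 50 after each start) were found for 28 of the 35 genes, in 37 entries. The letters CTTTCC on the gene's strand, a core of many TOP tracts, lay within 50 bases of the start in 14 of 37 entries (37.84%, 11 genes), against 4.69% of all 32851 entries. Of the 12 genes with an entry that were higher with IDMB in the results that follow, 5 held it. The windows below are those of these 5 genes, and of Rps19, which was lower with EGF. Capitals mark CTTTCC, and each window is read 5′ to 3′ on the gene's strand.
Rps10, chr17:27635223-27635252, minus strand: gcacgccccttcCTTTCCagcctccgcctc
Rpl13a, chr7:45128719-45128748, minus strand: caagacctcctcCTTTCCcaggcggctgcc
Rpl10a, chr17:28328574-28328603, plus strand: gcgctctgccttCTTTCCggtttccgcggc
Rpl19, chr11:98026944-98026973, plus strand: gcggcccacaagctCTTTCCtttcgctgct
Rpl6, chr5:121204521-121204550, plus strand: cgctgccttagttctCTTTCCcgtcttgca
Rps19, chr7:24884623-24884652, plus strand: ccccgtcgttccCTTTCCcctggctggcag

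The motif began 5 bases into the transcript in Rps10, at base 10 in Rpl13a, 22 in Rpl10a, 35 in Rpl19 and 36 in Rpl6, counting from 1 at the RefSeq start. In Rps19 this match began 41 bases before 1 RefSeq start and at base 44 counted from another. A cytosine with 4 pyrimidines after it stood exactly at the RefSeq start in 5 of 37 entries (13.5%), against 2.505% of all entries. The letters CCGGAA, the core bound by ETS factors, occurred on either strand in 17 of 37 entries (45.95%), against 14.9% of all entries. In Rpl10a, Rps27 and Rpl39l they overlap CTTTCC, as TTCCGG on the gene's strand. The E-box letters CACGTG, which read the same on both strands, were in 10.8% of member entries and 7.15% of all entries. TATAAA on the gene's strand was in 0 of the 37 entries within 50 bases before the start, against 2.63% of all entries. Entries of 1 gene overlap, member entries were richer in G and C (median 57.7% against 52.7% of all entries), and a match is a description of letters only.

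Most ribosomal protein genes read among the brightest on the array. Values are log2 of the deposited signal, raised to a floor of 7.16 where lower, and a probe set was tested only where its highest group mean reached 9.73. This left 25 of the 35 members, 12 of the large and 13 of the small subunit, among 7134 probe sets tested. Rpl41, a very small basic peptide of the large subunit, had the highest mean signal of any probe set (17.81), and 7 of the 20 brightest probe sets were members. It was followed by Rps24 (17.43), Rps28 (17.41), Rps18 (17.30) and Rplp0 (17.27), the last being the base of the stalk that recruits elongation factors. Signals of different probe sets depend on their probes and do not order the mRNAs by abundance. In all, 20 tested members had a mean of at least 14 and are called bright below. The other 5 tested members were Rpl22 (12.11), Rps27 (11.99), Rpl7l1 (10.90), Rps29 (10.02) and Rps13 (9.47).

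**Figure D1:**
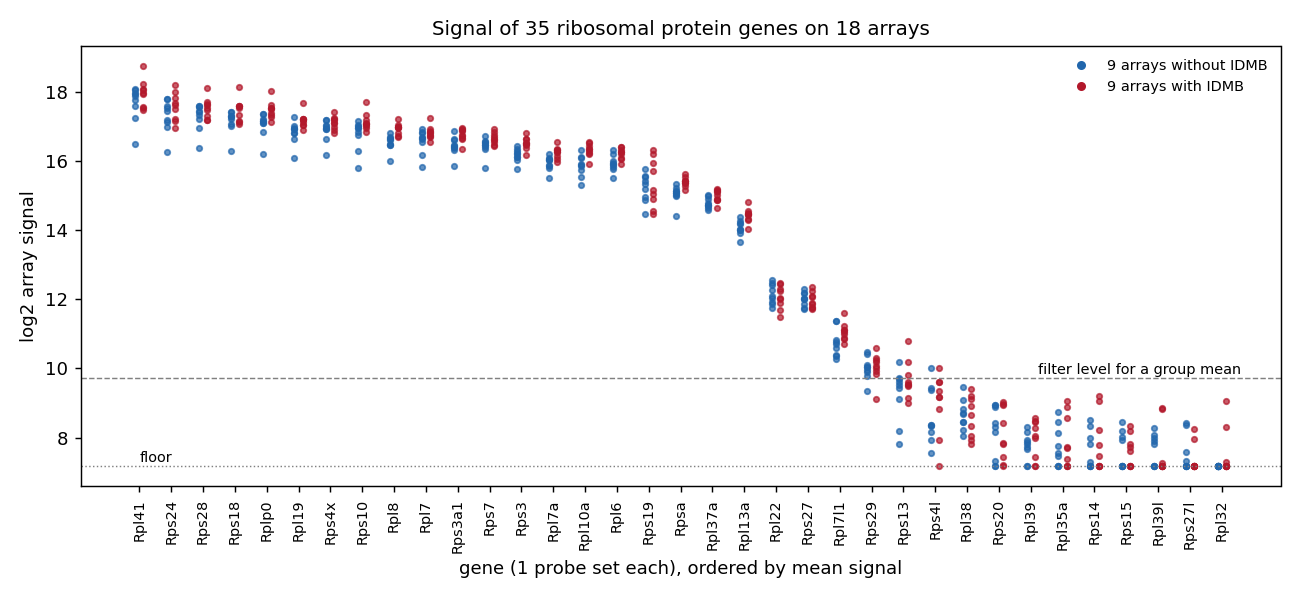
Log2 array signal (vertical axis) of each of the 35 ribosomal protein genes (horizontal axis, ordered by mean), with 1 point per array, blue for the 9 arrays without IDMB and red for the 9 with it. The 20 bright genes lie at 13.6 or above on every array, and the 10 genes at the right, which were not tested, scatter down to the floor of 7.16.

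The other 10 members could not be followed. They were Rps4l, Rpl38, Rps20, Rpl39, Rpl35a, Rps14, Rps15, Rpl39l, Rps27l and Rpl32, with mean signals from 8.80 (Rps4l) to 7.34 (Rpl32). Rpl32 was at the floor on 15 of 18 arrays, Rps27l on 12 and Rpl39l on 10. Several of these encode core proteins of every ribosome, such as Rps14 and Rpl32, so a signal at the floor describes the probe set and not the absence of the mRNA.

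Several members have a closely related copy on the array, and the levels given here are each probe set's own. Rps4x, the X-linked form of a small-subunit protein, read 17.00, and its copy Rps4l 8.80. Rpl7 read 16.70 and Rpl7l1, a related protein with a role in ribosome assembly, 10.90. Rps27 read 11.99 and Rps27l 7.44, while Rpl39 read 7.86 and Rpl39l, a form best known from testis, 7.59. A further 39 probe sets list a ribosomal protein gene together with other genes, mostly processed copies, and reads of such copies cannot be told apart from the gene. The same uncertainty holds for 9 members whose probe set name carries a suffix for probes that are shared or otherwise suboptimal, among them Rpl41, Rps24, Rps28 and Rpl7. The Rps24 probe set is annotated to the same source transcript as that of Rpl7, and the other Rps24 probe set read 8.89 and was not tested, so values given for Rps24 may belong to Rpl7.

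Most markers of the labelled cell type read brightly. Of 15 fibroblast markers on the array 13 were tested and 10 lay in the top 10% of signals, with Col1a1 at 16.68. Vim (8.80) and Lum (8.50) were too dim to test, and Thy1 (9.71) was at the floor on 2 arrays. Of the markers of other cells, 3 of 9 for blood, 1 of 6 for endothelium and 1 of 7 for epithelium were tested, namely Cd14, Csf1r, Hba-a1, Pecam1 and Cdh1, with mean signals from 9.26 (Hba-a1) to 12.31 (Cd14). The leukocyte marker Ptprc was at the floor on 16 of 18 arrays, Krt19 of epithelium on all 18, and Cdh5 of endothelium on 16. Others of these lists that were not tested lay above the floor on most arrays. Cd68 was at it on 1 array, Kdr on 2 and Krt18 on 3. Array medians ran from 793 to 936 and trimmed means from 2501.38 to 2501.71, so the arrays had been scaled to 1 level before deposit. The number of arrays, 2 or 3 a group, limits the precision. No 2 arrays of a group held the same values. The 2 TCDD arrays stood apart in their brightest signals, since 0.1% of probe sets exceeded 115493 on TCDD 1 and 77274 on TCDD 2, against 131504 or more on the other 16. The 3′ to 5′ ratio of the actin control probes, which rises as RNA degrades, was 1.23 to 1.93 on the 9 arrays without IDMB and 1.80 to 3.80 on the 9 with it.

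The members shared much of their deviation from array to array. Their summed signal was 4.43% to 4.95% of the total on the UT arrays, 2.86% and 3.81% on the TCDD arrays, 4.57% to 5.11% on the IDMB arrays and 4.25% and 6.61% on the IDMB+EGF arrays. The median deviation of the 20 bright members from their own means was −0.80 on TCDD 2, −0.29 on TCDD 1 and 0.47 on IDMB+EGF 1, whereas IDMB+EGF 2, the other array of the latter group, was at −0.17. The 429 other bright probe sets deviated in the same direction by less on these arrays, by −0.26, −0.07, 0.10 and −0.07. In bulk RNA scaled to 1 mean per array, a change in these mRNAs and an opposite change in the rest cannot be told apart, and neither can fewer cells of a type and less RNA per cell.

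**Figure D2:**
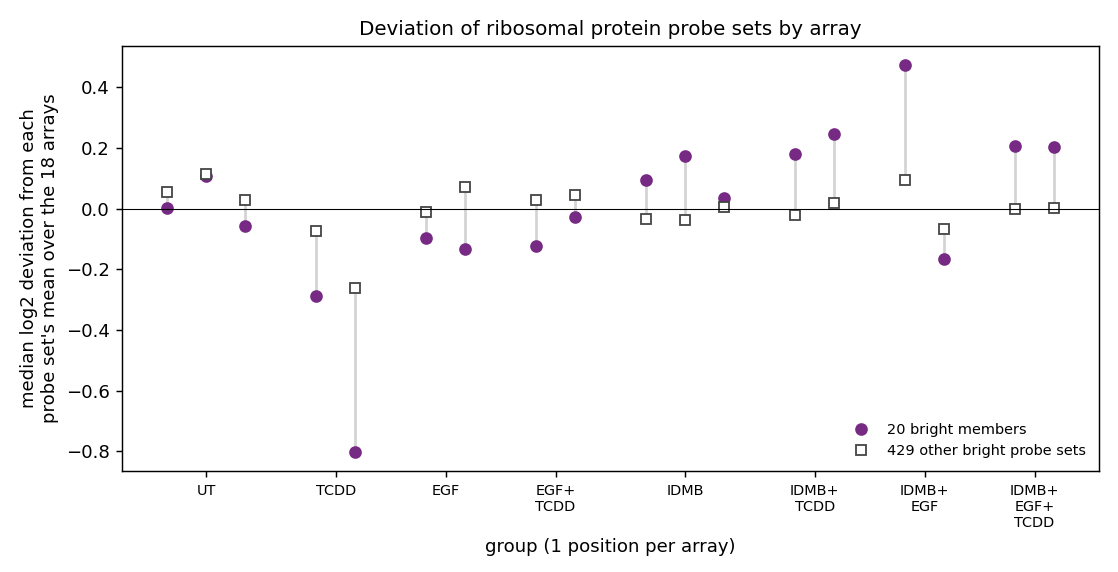
Median log2 deviation from each probe set's own mean over the 18 arrays (vertical axis), for the 20 bright ribosomal protein genes (filled circles) and 429 other bright probe sets (open squares), with 1 position per array and arrays ordered by group. The bright members lie lowest on the 2 TCDD arrays (−0.29 and −0.80) and highest on IDMB+EGF 1 (0.47), and the 2 IDMB+EGF arrays differ from each other.

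IDMB was compared with its absence to ask how the adipogenic mix moved these genes. Averaged over its 4 backgrounds (alone, with TCDD, with EGF, with both), it raised 14 of the 25 tested members and lowered 0 by limma at an adjusted p under 0.05. Of all 7134 probe sets, 15.5% were called higher and 18.6% lower. The members' median log2 difference was 0.33 (1.25-fold), against −0.04 over all tested probe sets and −0.02 over the 429 other bright ones. All 14 were bright members, 9 of 12 tested in the large subunit and 5 of 13 in the small, a difference that was not tested. Of the 14, 12 were higher in all 4 backgrounds, as was 1 of the 11 not called. This describes the same values that made the calls and adds no support to them. Fat cell markers moved with the same arrays, with 6 of 8 tested higher and 0 lower, and a summed signal of 21338 to 29368 in UT and 107273 to 159882 in IDMB. Of 13 fibroblast markers 6 were lower and 1 higher, with a summed signal of 596368 to 666868 in UT and 359999 to 419304 in IDMB, and 3 of 10 proliferation markers were lower. The part of these in the result was not tested.

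Rpl10a, a protein of the flexible L1 stalk where spent transfer RNA leaves, rose most of those called. Its log2 signal was 16.12, 16.32 and 16.10 in UT, 15.86 and 15.30 in TCDD, 15.91 and 15.53 in EGF, and 15.74 and 15.88 in EGF+TCDD. With IDMB it was 16.35, 16.30 and 16.21 alone, 16.44 and 16.53 with TCDD, 16.56 and 15.93 with EGF, and 16.35 and 16.23 with both. The IDMB arrays were the higher in all 4 backgrounds and did not overlap in 3, the exception being UT. The mean effect was a log2 difference of 0.51 (SE 0.104, 1.42-fold, limma adjusted p = 0.00129), and the second Rpl10a probe set gave 0.40 (adjusted p = 0.0168).

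Rplp0 followed the same course. It read 17.37, 17.35 and 17.20 in UT and 17.35, 17.54 and 17.29 in IDMB, which overlap. It read 16.83 and 16.19 in TCDD against 17.38 and 17.52 in IDMB+TCDD, and 17.11 on both EGF arrays against 18.02 and 17.12 in IDMB+EGF. In EGF+TCDD it read 17.16 and 17.17, and in IDMB+EGF+TCDD 17.54 and 17.62. The last 3 backgrounds did not overlap, and the mean effect was 0.47 (SE 0.118, adjusted p = 0.00541).

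The next largest mean IDMB effects were spread over both subunits. Rps10, a protein of the small-subunit head, was higher by 0.43 (adjusted p = 0.0074). Rpl8, which lies close to the peptidyl transferase centre, was higher by 0.41 (adjusted p = 0.00333) and Rpl13a, known also as a translational silencer when released from the ribosome, by 0.39 (adjusted p = 0.00287). Rpl19, of a bridge between the subunits, was higher by 0.39 (adjusted p = 0.0138). Rps3, of the mRNA entry channel, was higher by 0.37 (adjusted p = 0.00601), and Rpsa, known also as a laminin receptor, by 0.36 (adjusted p = 0.00697). The other 6 called members were Rps18, Rps3a1, Rpl7a, Rpl6, Rpl7 and Rpl37a, down to 0.23 for Rpl37a. The call for Rpl7 (0.28, adjusted p = 0.0325) was lost on leaving out any of 11 of the 18 arrays. Among those not called, Rpl41 differed by 0.33 (adjusted p = 0.114), Rps4x by 0.24 (adjusted p = 0.0662), Rpl7l1 by 0.33 (adjusted p = 0.0763) and Rps27 by −0.03 (adjusted p = 0.846). The brighter Rps28 probe set was not called, and a second one was higher by 0.45 (adjusted p = 0.00439).

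**Figure D3:**
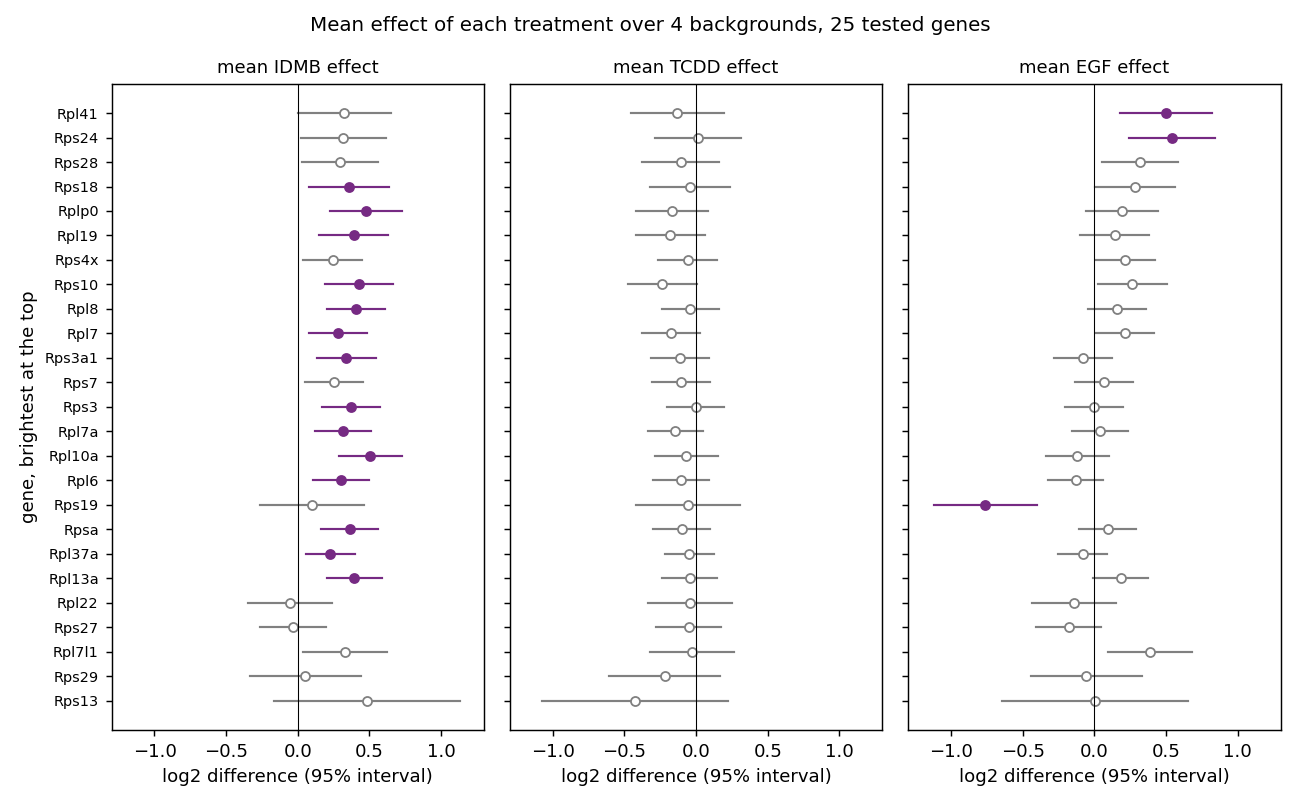
Mean log2 difference with its 95% interval (horizontal axis) of each of the 25 tested genes (vertical axis, brightest at the top) for IDMB, TCDD and EGF, each averaged over 4 backgrounds, with filled points for limma adjusted p under 0.05. IDMB has 14 filled points, all to the right of 0, TCDD has none, and EGF has 3, with Rps19 to the left.

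The mean IDMB calls depended on the TCDD arrays. Without both TCDD arrays the mean over the other 3 backgrounds called 5 members higher, namely Rpl10a, Rpl8, Rpl13a, Rps3 and Rpsa, where 12.1% of all probe sets were, and the members' median was 0.17. Leaving out any single array left 11 to 20 members called. With the actin ratio as a covariate 0 members were called and 448 of the 7134 probe sets in place of 2432, with a median of 0.18 over the members. That ratio and IDMB moved together over the arrays, and its part in the result cannot be told apart from IDMB.

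Taken 1 background at a time, members were called with IDMB in 1 of the 4. IDMB against UT called 0 of 25 (14.1% of all probe sets, and 0 members at an unadjusted p under 0.05), with a median of 0.05. IDMB+EGF against EGF called 0 (10.8% of all), with a median of 0.24 and 2 members at an unadjusted p under 0.05. IDMB+EGF+TCDD against EGF+TCDD called 0 (6.5% of all), with a median of 0.24 and 1 member at an unadjusted p under 0.05. Of all 7134 probe sets, 1829, 1771 and 1433 passed that unadjusted threshold in these comparisons, in this order. IDMB+TCDD against TCDD called 16 higher and 0 lower (6.53% and 6.28% of all), with a median of 0.74 (1.67-fold) against −0.08 over all tested probe sets and 0.17 over the other bright ones. Only 2 arrays stand on each side there.

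In IDMB+TCDD against TCDD Rpl41 moved most. It read 17.24 and 16.48 in TCDD and 17.93 and 18.07 in IDMB+TCDD, a log2 difference of 1.14 (SE 0.319, adjusted p = 0.0271). Rps24 went from 16.97 and 16.25 to 17.63 and 17.67, a difference of 1.04 (adjusted p = 0.0298). Rps10 went from 16.29 and 15.81 to 16.97 and 17.06, a difference of 0.97 (adjusted p = 0.0134). The groups did not overlap for these 3 genes, and the lower TCDD array was TCDD 2 each time. Differences of 0.80 to 0.94 were called for Rplp0, Rps18, Rpl10a, Rps28 and Rps3a1, the last a protein near the mRNA exit. The second Rps28 probe set gave 0.97 (limma adjusted p = 0.0117). The third went the other way, at −0.71 (adjusted p = 0.0997). The remaining 8 called were Rpl8, Rpl19, Rps4x, Rpl7, Rpl13a, Rps7, Rpsa and Rpl6, from 0.77 down to 0.60.

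Those calls were lost when some single arrays were left out. None of the 16 was called without TCDD 2 or without IDMB+TCDD 2, and 1 without IDMB+TCDD 1. The median was 0.56 without TCDD 2 and 0.93 without TCDD 1. Leaving out any of these arrays leaves 1 array in its group, which also lowers precision for every probe set. Calls over all probe sets are not given for these fits. The lost calls therefore do not tell the members from the array as a whole. Quantile normalization, which forces 1 distribution on all arrays, gave a median of 0.17 and 4 calls. Under it Rps18 and Rps28 were at −0.01 and −0.05, and Rpl41, the brightest probe set, at 0. Quantile normalization gives the top-ranked probe set the same value on every array. The 0 of Rpl41 was therefore fixed in advance, and differences of other probe sets near the top can be made smaller too.

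TCDD alone was compared with UT to ask what the receptor agonist did to these genes without the mix. All 25 tested members read lower in TCDD, by a median of −0.60 on the log2 scale, against 0.03 over all tested probe sets and −0.22 over the other bright ones. By limma 4 were called lower and 0 higher, where 3.8% of all probe sets were called lower and 3.88% higher. On TCDD 1, 17 of the 20 bright members lay under their own UT range, and on TCDD 2, 19 did, against 50.8% and 60.4% of the other bright probe sets and 30.6% and 27.0% of all tested. The count was 16 on IDMB+EGF 2, 8 to 11 on the EGF and EGF+TCDD arrays, and 0 to 5 on the other arrays with IDMB. Over the other bright probe sets the share was 48.5%, 34.5% to 38.9% and 36.1% to 42.7%, in the same order. Over all tested it was 31.3%, 27.2% to 30.1% and 30.3% to 33.7%.

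Rps10 fell most. It read 16.96, 17.15 and 17.05 in UT and 16.29 and 15.81 in TCDD, a log2 difference of −1.01 (SE 0.214, adjusted p = 0.0109). Rplp0, whose arrays are given above, fell by 0.80 (adjusted p = 0.0405). Rpl7 read 16.69, 16.94 and 16.67 in UT and 16.17 and 15.84 in TCDD, a difference of −0.76 (SE 0.182, adjusted p = 0.0191). Rps4x read 16.96, 17.20 and 16.94 in UT and 16.63 and 16.17 in TCDD, a difference of −0.64 (adjusted p = 0.0477). TCDD lay under UT without overlap for these 4 genes, and TCDD 2 was the lower array in each. Among probe sets not followed, the second of Rpl10a differed by −1.17 (limma adjusted p = 0.00748), where the brighter gave −0.60 (adjusted p = 0.0759). The third of Rps28 went the other way, at 0.50 (adjusted p = 0.221).

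Other values moved with this comparison. Of the 429 other bright probe sets 60 were called lower and 5 higher (3.8% and 3.88% of all probe sets). Without TCDD 2 none of the 4 members was called and the median was −0.32, and quantile normalization gave a median of −0.07, with Rps4x at 0.08. The 3′ to 5′ ratio of the Gapdh control was 0.85 and 0.92 in TCDD against 1.25 to 1.52 in UT, and with it as a covariate 0 members and 0.505% of all probe sets were called, with a median of −0.51 over the members. Calls over all probe sets are not given for fits with 1 array left out. Leaving out 1 array elsewhere also moved the count of members called. It was 1 or 2 without any 1 UT array, EGF, EGF+TCDD, IDMB+TCDD or IDMB+EGF+TCDD array or IDMB 3, and 10 without either IDMB+EGF array. The summed signal of 9 blood cell markers was 11041 and 13302 in TCDD against 6963 to 8371 in UT, with Ptprc, Adgre1 and Itgam each at the floor on 16 of 18 arrays and 3 of the 9 tested. Of these 3, Cd14 was higher in TCDD by 0.75 (adjusted p = 0.0103). The summed signal of 15 fibroblast markers was 401476 and 496982 in TCDD against 596368 to 666868 in UT, with 2 of 13 tested lower. Of 10 proliferation markers 2 were higher, with a median of 0.94. The part of these in the lower signals was not tested.

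In the other 3 backgrounds TCDD moved no member past the threshold. EGF+TCDD against EGF called 0 (0.28% of all probe sets) with a median of 0.03. IDMB+TCDD against IDMB called 0 (6.59% of all) with a median of 0.14, and IDMB+EGF+TCDD against IDMB+EGF 0 (0.364% of all) with a median of 0.01. At an unadjusted p under 0.05 there were 0 members in each of these 3 comparisons. Of all 7134 probe sets there were 380, 1629 and 505, in the same order. The mean TCDD effect likewise called 0 members (5.54% of all), with 0 at an unadjusted p under 0.05 and a median of −0.10, which was 0.04 without both TCDD arrays. Of all 7134 probe sets, 1381 had an unadjusted p under 0.05 in the mean TCDD effect. Single values of it were −0.17 for Rplp0 (95% interval −0.42 to 0.08), −0.10 for Rpsa, −0.13 for Rpl41 (interval −0.45 to 0.19), −0.17 for Rpl7, −0.06 for Rps4x, −0.05 for Rps27 and −0.03 for Rpl7l1.

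**Figure D4:**
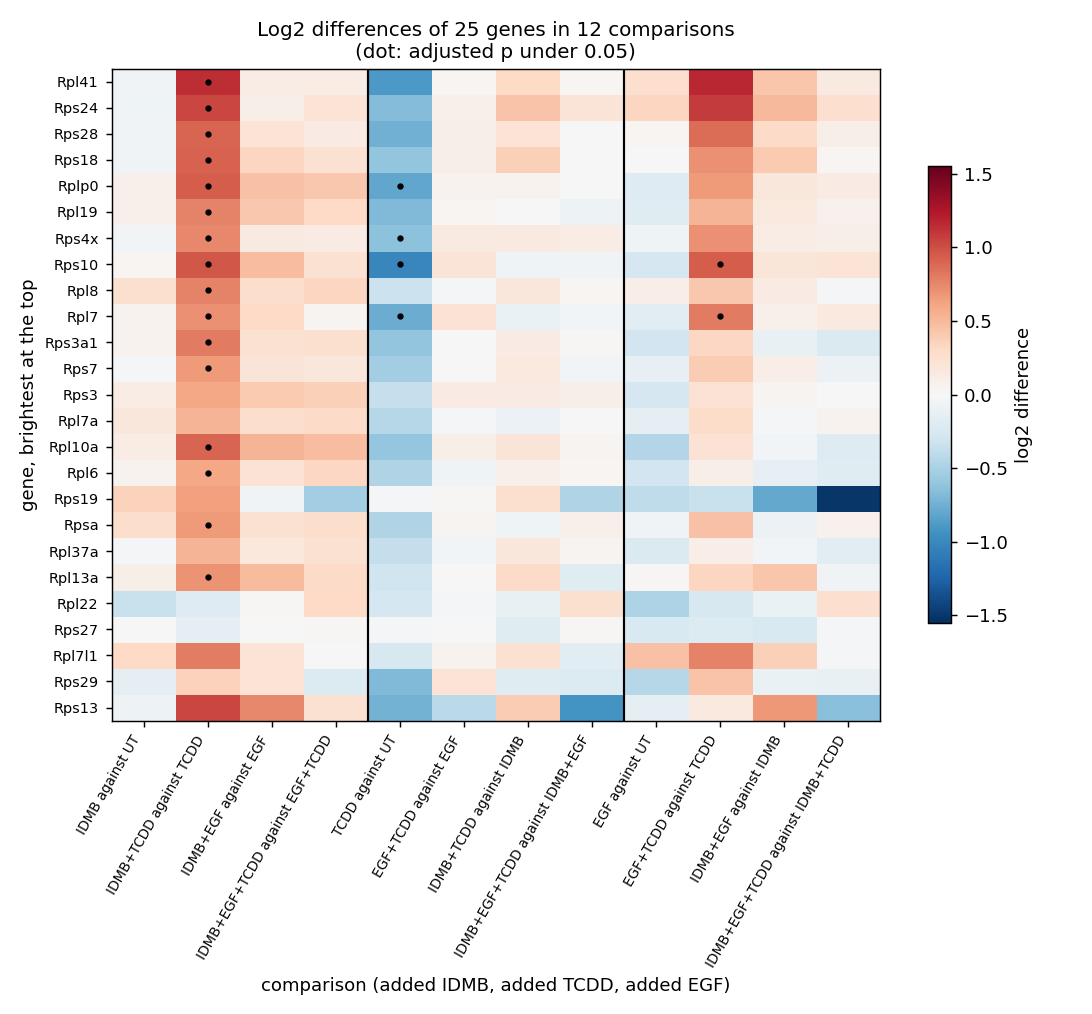
Log2 difference (colour, red higher, blue lower) of each of the 25 tested genes (rows) in the 12 comparisons that add 1 agent to 1 background (columns, grouped by the agent added), with a dot where the limma adjusted p was under 0.05. IDMB+TCDD against TCDD has 16 dots, TCDD against UT 4 and EGF+TCDD against TCDD 2, and these 3 columns share the TCDD arrays.

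EGF was compared with its absence to ask how a growth factor moved the same genes. Averaged over 4 backgrounds, 2 of 25 members were called higher and 1 lower, where 7.06% of all probe sets were called higher and 6.04% lower. These counts are near those shares and do not set the members apart from the array as a whole. The members' median was 0.09, against 0.00 over all tested probe sets, and turned to −0.06 under quantile normalization. Markers of dividing cells moved with EGF in the same arrays, with 8 of 10 tested called higher and a median of 1.00.

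Rps19, a small-subunit protein needed for maturation of its ribosomal RNA and mutated in Diamond-Blackfan anaemia, fell with EGF. It read 15.53, 14.95 and 15.76 in UT, 15.42 and 15.34 in TCDD, 16.20, 15.15 and 15.94 in IDMB, and 15.72 and 16.32 in IDMB+TCDD. With EGF it read 15.56 and 14.48 alone, 14.88 and 15.20 with TCDD, 15.03 and 14.90 with IDMB, and 14.54 and 14.46 with both. The EGF arrays were lower on average in all 4 backgrounds and did not overlap the others in 3, the exception being EGF against UT. The mean effect was −0.76 (SE 0.170, adjusted p = 0.00983), called with any 1 array left out. The adjusted p was 0.0509 with the floor at the median. With the actin ratio as a covariate the difference was −0.66 (SE 0.291, adjusted p = 0.376), and with the Gapdh ratio −0.24 (SE 0.412, adjusted p = 0.925). Under either covariate 0 of all 7134 probe sets were called in this effect. The Gapdh ratio was 1.43 to 2.86 on the 8 arrays with EGF and 0.85 to 1.73 on the 10 without. Its part in the result cannot be told apart from EGF. Rps19 also varied most within groups among the bright members, with a pooled SD of 0.42 against a median of 0.19.

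Rps24 and Rpl41 were the 2 members called higher with EGF. Rps24 ran from 16.25 to 17.67 (median 17.16) on the 10 arrays without EGF and from 17.23 to 18.19 (median 17.79) on the 8 with it, which overlap. Its mean effect was 0.54 (SE 0.141, adjusted p = 0.0207), lost without TCDD 2 or without EGF 2. Rpl41 ran from 16.48 to 18.07 without EGF and from 17.48 to 18.75 with it, a mean effect of 0.50 (adjusted p = 0.0396) lost on leaving out any of 14 of the 18 arrays. Without IDMB+EGF 2 the count of members called was 10, and without TCDD 2 or without EGF 2 it was 1. Calls over all probe sets are not given for these fits. In the main fit Rplp0 differed by 0.19 (adjusted p = 0.314), Rpsa by 0.09, Rpl7 by 0.22, Rps4x by 0.22, Rps27 by −0.18 and Rpl7l1 by 0.39 (adjusted p = 0.0733).

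**Figure D5:**
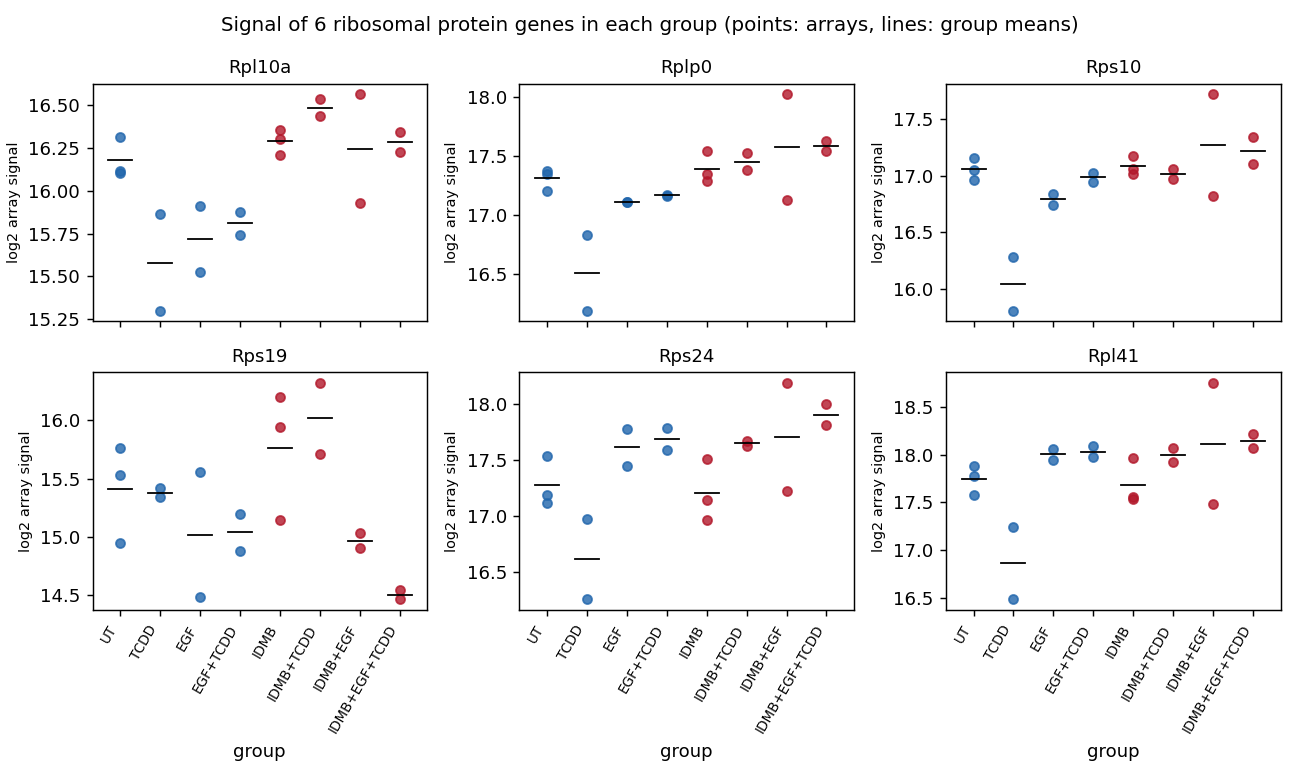
Log2 array signal (vertical axes, which differ between panels and do not start at 0) of 6 ribosomal protein genes in the 8 groups (horizontal axis), with a point per array, a line at each group mean, and red for groups with IDMB. All of these genes but Rps19 have their lowest group mean in TCDD. Rps19 has its lowest in IDMB+EGF+TCDD (14.54 and 14.46), and the 2 IDMB+EGF arrays lie far apart for all but Rps19.

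Single EGF comparisons called few members. EGF against UT called 0 (6.17% of all probe sets, 1 member at an unadjusted p under 0.05) with a median of −0.18. IDMB+EGF against IDMB called 0 (3.8% of all, 2 members unadjusted) with a median of 0.10, and IDMB+EGF+TCDD against IDMB+TCDD 0 (0.28% of all, 1 member unadjusted) with a median of −0.01. Unadjusted, 1446, 1368 and 847 of all 7134 probe sets passed in these comparisons, in the same order. EGF+TCDD against TCDD called Rps10 and Rpl7 higher and 0 lower (1.6% and 1.91% of all), with a median of 0.42. Rps10 read 16.95 and 17.03 in EGF+TCDD, above both TCDD arrays, a difference of 0.94 (SE 0.235, adjusted p = 0.0399). Rpl7 read 16.83 and 16.80, also without overlap, a difference of 0.81 (SE 0.199, adjusted p = 0.0371). With 1 array left out, the calls of Rps10 and Rpl7 are given without those over all probe sets. Neither was called without TCDD 2, any 1 EGF, EGF+TCDD, IDMB+TCDD or IDMB+EGF+TCDD array, while 1 member was called without UT 2 or IDMB 3 and 6 without TCDD 1 or either IDMB+EGF array.

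Whether 1 agent altered the response to another was tested by interactions. No member was called in the mean IDMB by TCDD (0.112% of all probe sets, 1 member at an unadjusted p under 0.05), IDMB by EGF (0.126%, 1 member) or EGF by TCDD (4.47%, 2 members) interactions. Of all 7134 probe sets, 571, 865 and 1555 passed the same unadjusted threshold, in this order. Within 1 background, which was tested after the comparisons above had been seen, IDMB by TCDD without EGF called 0 (0.378% of all), with a median of 0.66 and 15 of 25 members at an unadjusted p under 0.05. EGF by TCDD without IDMB called 0 (0.364% of all), with a median of 0.53 and 8 of 25. At an unadjusted p under 0.05 were 959 of all 7134 probe sets in the former and 1139 in the latter. The IDMB response with TCDD was therefore not called as different from that without it. Both interactions use the same TCDD and UT arrays.

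The probe sets shared between a ribosomal protein gene and other genes were in part read from the same mRNAs and are not independent. Of 34 tested, 16 were higher and 0 lower in the mean IDMB effect (15.5% and 18.6% of all probe sets), with a median of 0.31. In TCDD against UT 18 were lower and 0 higher (3.8% and 3.88% of all), with a median of −0.68.

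Other genes of the translation apparatus were followed from lists. Of all probe sets, 15.5% were higher and 18.6% lower in the mean IDMB effect. In TCDD against UT 3.88% were higher and 3.8% lower. In the mean IDMB effect, 2 of 5 translation elongation factors were higher and 0 lower, namely Eef2, which moves the ribosome along the mRNA (0.54, adjusted p from limma 0.00051), and Eef1d (0.50). Of 32 initiation factors 13 were higher and 1 lower, led by Eif1a (1.07), Eif2ak1 (0.74), a kinase that inhibits initiation, and the helicase Eif4a2 (0.66). Of 14 genes outside the ribosome whose mRNAs are known to carry TOP tracts, a list that shares members with these 2, 6 were higher and 0 lower, with a median of 0.34, and Hnrnpa1 (0.62) and the poly(A)-binding protein Pabpc1 (0.51) stood beside Eef2. In TCDD against UT 4 of these 14 were lower and 0 higher, with a median of −0.55, including Eif3e (−0.98), Npm1 (−0.92) and Pabpc1 (−0.80).

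Mitochondrial ribosomal proteins serve a separate ribosome. Of 57 tested, 9 were higher (15.8%, against 15.5% of all probe sets) and 2 lower (3.51%, against 18.6%) in the mean IDMB effect, with a median of 0.06. The share called higher was thus near that of the array as a whole, and the share called lower was under it. Those called included Mrpl24 (0.84), Mrpl45 (0.71) and Mrps28 (−0.58). Of 49 genes of ribosome biogenesis and RNA polymerase I, 15 were higher and 2 lower, with a median of 0.12, led by Rrp1b (1.11), Polr1d (1.01) and Rcl1 (0.84). In IDMB against UT, where 0 ribosomal proteins were called, 15 of these 49 were higher (30.6%, against 6.66% of all probe sets) and 0 lower, with a median of 0.54. In IDMB+TCDD against TCDD, where 16 ribosomal proteins were called, 4 of the 49 were higher and 3 lower, with a median of −0.0018. These shares (8.16% and 6.12%) were near those of all probe sets (6.53% and 6.28%). Among 14 regulators of ribosome production, 2 were higher (14.3%, again near the 15.5% of all probe sets) and 0 lower with IDMB, namely Ddit4, an inhibitor of mTORC1 (2.43), and Mxd4 (0.40), an antagonist of Myc.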

How the data were processed

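Each of 18 Affymetrix arrays gave 1 signal per probe set. The deposited values are linear intensities, scaled by the authors so that each array has a trimmed mean (2% left off each side) near 2501, as the values show. The software behind them was not given in the sources used here. The RNA was pooled from 6 cultures per array, per the labels.

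From these intensities, values under 143.5 (the 20th percentile) were raised to it and log2 was taken. Of 12422 probe sets that were not controls, 7134 whose highest group mean reached the median were tested. Symbols came from the platform annotation, which gave 1 symbol for 10833, several for 396 and none for 1193 probe sets. A model with 1 mean per group (10 residual degrees of freedom) was fitted with limma 3.58.1 (lmFit, eBayes with a trend) in R 4.3.3. It gave 3 mean effects, 12 single comparisons and 5 interactions, each with Benjamini-Hochberg adjustment over all 7134. An adjusted p under 0.05 is a call. Adjusted p-values in the report come from limma. The script was tested on simulated data.

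Members named in all cases were Rplp0, Rpsa, Rpl41, the related copies Rpl7l1, Rps4l, Rps27l and Rpl39l with their parent genes, and the 5 brightest and 5 dimmest. Others were named where called, up to 8 in each direction by size, as were up to 3 called genes of each other list. Members, gene lists and tests were chosen with earlier results of these data known. Alternatives were other scalings, floors, filters and variance models, covariates for the control probe ratios, a replicate block, the compared groups alone, and each array left out.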

Additional observations from a re-analysis of the deposited data

How the results depend on the processing

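Of the 17 alternatives, scaling on the other bright probe sets and leaving out both TCDD arrays were chosen after the data were seen, as were the 2 interactions within 1 background. Counts below are of members called, 25 being tested in the main fit, and the cause was not tested. Square brackets give the calls over all probe sets tested under the same setting. In the main fit these were 2432 for mean IDMB, 935 for mean EGF and 914 for IDMB+TCDD against TCDD. They were 548 for TCDD against UT and 250 for EGF+TCDD against TCDD, and the shares in the other comparisons are given above. The mean IDMB count was within 1.5 times of 14 under all alternatives but 2. It was 0 with the actin ratio as covariate [448], 5 without both TCDD arrays [1883], and 11 to 20 with 1 array left out. The median of the members in mean IDMB kept its sign under every alternative (0.17 to 0.38). With quantile normalization the count was 5 for mean EGF [965], all lower, including Rplp0 at −0.15. It was 4 for IDMB+TCDD against TCDD [833], 4 for IDMB+EGF against EGF [763] and 2 for TCDD against UT [533], of which 1 was higher and 1 lower. It was 1 for IDMB against UT [1007], EGF against UT [424], EGF+TCDD against TCDD [283], and both EGF by TCDD interactions (mean [329], and without IDMB [29]). The medians were then 0.17 for IDMB+TCDD against TCDD, −0.074 for TCDD against UT and −0.073 for EGF+TCDD against TCDD. Those of the interactions were 0.0047 (mean IDMB by TCDD), 0.056 (mean IDMB by EGF), 0.0071 (mean EGF by TCDD), 0.096 (IDMB by TCDD without EGF) and 0.080 (EGF by TCDD without IDMB). Rps18 and Rps28 were at −0.0079 and −0.048 in IDMB+TCDD against TCDD, Rps27 at 0.0021 in mean IDMB, and Rps4x at 0.082 in TCDD against UT, 0.088 in mean TCDD and −0.027 in mean EGF. With the floor at the median, mean EGF gave 0 [613], IDMB+TCDD against TCDD 3 [665], TCDD against UT 1 [390] (median −0.35) and EGF+TCDD against TCDD 0 [258] (median 0.23). EGF by TCDD without IDMB then had a median of 0.33. With no filter those 4 counts were 1 [643], 3 [655], 1 [338] and 0 [189]. With the filter at the 75th percentile EGF+TCDD against TCDD gave 5 [274], with a robust variance model 4 [270], and with the mean of all probe sets of a gene 1 [247]. Without a trend IDMB+TCDD against TCDD gave 10 [805], TCDD against UT 2 [425] and EGF+TCDD against TCDD 0 [195]. With the actin ratio, mean EGF [0], IDMB+TCDD against TCDD [210] and EGF+TCDD against TCDD [0] gave 0 and TCDD against UT 2 [468]. The median of IDMB+EGF+TCDD against EGF+TCDD was then −0.018 and Rpsa in mean EGF −0.050. With the Gapdh ratio, mean EGF [0], TCDD against UT [36] and EGF+TCDD against TCDD [0] gave 0 and IDMB+TCDD against TCDD 6 [717]. Rpsa was then at −0.16 and Rps27 at 0.085 in mean EGF. With array weights calls rose over the whole array too. TCDD against UT gave 12 [1148, in the main fit 548] and EGF+TCDD against TCDD 6 [543, in the main fit 250]. EGF by TCDD without IDMB gave 2 [346, in the main fit 26], and IDMB+EGF+TCDD against IDMB+TCDD 1 [99, in the main fit 20]. With only the compared groups fitted, IDMB+TCDD against TCDD [788] and EGF+TCDD against TCDD [88] gave 0, TCDD against UT 1 [176] and IDMB+EGF+TCDD against EGF+TCDD 3 [756]. With arrays scaled to the same median EGF+TCDD against TCDD gave 0 [169] and Rps27 in mean IDMB was 0.027. Scaled on the other bright probe sets, EGF+TCDD against TCDD gave 4 [408] (median 0.21) and TCDD against UT 2 [905] (median −0.36). Medians were 0.40 for the IDMB by TCDD interaction without EGF and 0.29 for the EGF by TCDD one without IDMB, and Rpl7l1 and Rps27 were at 0.026 and 0.0029 in mean TCDD. That scaling moved the median of all tested probe sets by 0.24 in TCDD against UT. Without both TCDD arrays mean EGF gave 1 [693]. Mean TCDD was then 0.12 for Rpl41, 0.023 for Rpl7, 0.046 for Rpl7l1, 0.041 for Rplp0, 0.13 for Rps4x and 0.020 for Rpsa. Rps27 was then 0.0086 in mean IDMB and Rpsa −0.026 in mean EGF. 

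With 1 array left out, the count ran from 0 to 19 for IDMB+TCDD against TCDD, 0 to 10 for TCDD against UT, 0 to 7 for IDMB+EGF against EGF, 0 to 6 for EGF+TCDD against TCDD, 0 to 2 for IDMB+EGF against IDMB and 1 to 10 for mean EGF. It ran from 0 to 1 for mean TCDD and 0 to 2 for both EGF by TCDD interactions. The median ran from 0.56 to 0.93 for IDMB+TCDD against TCDD, −0.75 to −0.32 for TCDD against UT, −0.019 to 0.57 for IDMB+EGF against EGF, −0.24 to 0.38 for IDMB+EGF against IDMB, −0.31 to 0.30 for IDMB+EGF+TCDD against IDMB+EGF and 0.17 to 0.66 for EGF+TCDD against TCDD. It ran from 0.38 to 0.79 for EGF by TCDD without IDMB and −0.30 to 0.050 for mean IDMB by EGF. In mean TCDD, Rpl41 ran from −0.29 to 0.029, Rpl7l1 from −0.12 to 0.062 and Rps4x from −0.13 to 0.017, and in mean IDMB Rps27 ran from −0.077 to 0.012. The count of 7 for IDMB+EGF against EGF, of 2 for IDMB+EGF against IDMB and of 1 for mean TCDD each came without IDMB+EGF 2. Calls over all probe sets with 1 array left out are not given here. These counts therefore do not tell the members from the array as a whole.

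Arrays numbered alike in different groups were checked for shared deviations: over 57 such pairs the correlation ran from −0.10 to 0.44 (median 0.05), and 14 were over 0.1. Over 84 pairs with different numbers the median was −0.02 and 5 were over 0.1. The numbers were to be taken as pairing the arrays only if every same-numbered pair was over 0.1, so they were not. That rule is strict, and failing it does not show that like-numbered arrays share no deviation. In groups of 2 arrays the deviations from the group mean mirror each other, so the 2 kinds of pairs are not independent. With the number as a replicate block the count was 14 for mean IDMB [2541 over all probe sets], 2 for mean EGF [1059] and 15 for IDMB+TCDD against TCDD [1049]. It was 6 for TCDD against UT [816, in the main fit 548] and 2 for EGF+TCDD against TCDD [305].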
